A study of Mus musculus with 9 samples.

Results

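The pan-macrophage identity genes described here are 7 genes widely used to recognise a mouse macrophage: Ptprc, Adgre1, Cd68, Lyz1, Lyz2, Aif1 and Cd14. They were chosen by symbol, matched to the Ensembl identifiers of the count table, and are 7 of its 53465 genes. All 7 passed the filter on low counts, which left 12610 genes for testing. The question asked of them was how far their levels differ between macrophages of different origin.

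The study profiled mouse macrophage RNA in 9 samples that form 3 groups, each with 3 libraries. The lining group (libraries A, B and C) held CD45+ CD11b+ F4/80+ GFP+ cells sorted from the hind paws of healthy Cx3cr1-GFP mice, in which green fluorescent protein (GFP) reports the gene for the fractalkine receptor. The interstitial group (D, E and F) held CD45+ CD11b+ F4/80+ cells of the same source that lacked GFP, and the age of the mice was not given in the sources used here. Bone marrow-derived macrophages (BMDM; G, H and I) came from C57BL/6 marrow cultured over 5 days with a conditioned medium that supplies macrophage colony-stimulating factor. The sort, the tissue, the reporter allele and the culture thus separate the sorted groups from BMDM together and cannot be told apart. The sort used the proteins of Ptprc (CD45) and Adgre1 (F4/80), so the presence of those transcripts in the sorted groups was a condition of the design and not a finding. In RNA from many cells, fewer cells of a type and less RNA per cell cannot be told apart.

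Macrophages are resident phagocytes that take up particles, digest them in lysosomes and sense microbial products at their surface. In the joint they line the synovial cavity and also lie in the connective tissue beneath it. The 7 genes cover these functions: CD45 is a receptor tyrosine phosphatase of all nucleated blood cells, F4/80 an adhesion G protein-coupled receptor of mouse macrophages, and CD14 a co-receptor for bacterial lipopolysaccharide. CD68 is a glycoprotein of late endosomes and lysosomes, the lysozymes cut bacterial cell walls, and AIF1 (also called IBA1) is a calcium-binding protein that bundles actin.

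The pair of lysozyme genes lies side by side on the minus strand of chromosome 10 (GRCm38), Lyz1 (ENSMUSG00000069515) at chr10:117287797-117292868 and Lyz2 (ENSMUSG00000069516) at chr10:117277331-117282321. Lyz2 is classically the lysozyme of myeloid cells and Lyz1 that of the Paneth cells of the gut. Their transcripts, of 1263 and 1316 bases, were 92% identical over 1317 aligned columns, with 51 mismatches and 55 gap columns. The coding parts, of 444 bases each, were 95% identical, with 22 mismatches. Because reads must separate these copies, the first 150 coding bases (GENCODE M21, GRCm38, minus strand, spliced from chr10:117291180-117292838 for Lyz1 and chr10:117280792-117282242 for Lyz2) are given, with the positions that differ between the copies in capitals.
Lyz1: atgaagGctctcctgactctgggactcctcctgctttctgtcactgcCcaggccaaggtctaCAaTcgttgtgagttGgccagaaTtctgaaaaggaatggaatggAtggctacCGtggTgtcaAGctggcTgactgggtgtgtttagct
Lyz2: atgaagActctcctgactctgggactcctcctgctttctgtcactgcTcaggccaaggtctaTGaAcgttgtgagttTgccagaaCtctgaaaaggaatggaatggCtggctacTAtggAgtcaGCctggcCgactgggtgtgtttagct
These stretches carry 14 differing positions each. A read of 101 bases taken from the aligned transcripts spanned a median of 3 differences. Of 1163 such windows of Lyz1, 22 (1.89%) were found without any change in another gene, and of 1216 of Lyz2, 22 (1.81%). None of the windows of the other 5 genes occurred in another gene, and no exon base of the 7 genes was shared with a further gene on the same strand.

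The copies also differ in levels between the groups, so the stretch upstream of each start is shown (RefSeq, GRCm38.p6, minus strand, chr10:117292919-117293118 for Lyz1 and chr10:117282323-117282522 for Lyz2). Each stretch of 200 bases ends 50 bases before the RefSeq start, and capitals mark positions that differ between the copies or face a gap.
Lyz1: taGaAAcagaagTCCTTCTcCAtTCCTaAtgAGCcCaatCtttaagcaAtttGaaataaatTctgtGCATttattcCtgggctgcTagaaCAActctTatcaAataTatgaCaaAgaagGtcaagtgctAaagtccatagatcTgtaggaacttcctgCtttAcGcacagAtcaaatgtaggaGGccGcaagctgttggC
Lyz2: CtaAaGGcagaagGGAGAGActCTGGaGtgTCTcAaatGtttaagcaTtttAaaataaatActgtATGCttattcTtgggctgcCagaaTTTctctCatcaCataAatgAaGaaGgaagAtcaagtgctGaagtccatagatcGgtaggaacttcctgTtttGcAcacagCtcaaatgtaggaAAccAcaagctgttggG
Over the 250 bases before each start the copies were 79.4% identical, with 48 mismatches and 4 gap columns in 252, and the longest identical run was the 50 bases nearest to the start. The start of Lyz2 differs between annotations: the Ensembl gene in the count table begins within those 50 bases of the RefSeq window, so they are partly transcript there and are not printed for either copy. The letters GGAAGT, a core found in binding sites of PU.1 and other ETS factors, occur once in each copy, read on the opposite strand as acttcc from 100 bases before the start. Among 32851 mouse promoter windows of 250 bases, 6485 (19.7%) hold GGAAGT on either strand. The Ptprc windows hold it too, 2 times in one and 1 time in the other, and the Cd68 and Aif1 windows do not. The related letters GAGGAA occur in 1 of the Ptprc windows and in those of Cd68 and Aif1, not in those of Lyz1 and Lyz2, and in 23.3% of all windows. A match is a description of letters only.

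Library totals ranged from 2194920 to 11137451 counts in the sorted groups and from 19427273 to 22499823 in BMDM. Levels here and below are given as CPM, counts relative to the library's total after scaling by TMM factors (trimmed mean of M-values). Pearson correlations of log2 CPM between libraries, taken over genes and so not over replicates, lay at 0.872 to 0.924 for pairs of lining libraries, at 0.85 to 0.924 for interstitial pairs and at 0.996 to 0.997 for BMDM pairs. Lining and interstitial libraries correlated with each other at 0.817 to 0.936, a range that spans those inside both sorted groups. The reporter gene Cx3cr1, on which the sort rested, had 708 ± 59.0 CPM in the lining group, where its reporter was selected, 4.93 ± 2.66 in interstitial, where it was excluded, and 278 ± 38.2 in BMDM (SD, n = 3 each). Nothing in the labels says that samples of a group came from separate animals, so p-values measure only the spread between these samples, which may be technical. Reads carry no molecular identifiers, so every counting interval covers counting error only. Below, "called" means an adjusted p below 0.05 in edgeR's quasi-likelihood test with Benjamini-Hochberg adjustment over the 12610 genes.

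The 7 genes did not form one stable class. Ptprc stayed between 374 and 537 CPM in all 9 libraries, whereas Lyz1 ran from 1144 CPM in a lining library to 5.41 in a BMDM library. Adgre1, Cd68, Lyz2 and Cd14 varied between 1.83-fold and 2.88-fold from the lowest to the highest library, and Aif1 varied 8.84-fold. Over the group means, the highest exceeded the lowest 1.03-fold for Ptprc, 1.35-fold for Cd14, 1.76-fold for both Adgre1 and Cd68, 1.79-fold for Lyz2, 7.18-fold for Aif1 and 152-fold for Lyz1. A test for any difference among the 3 groups called 5 of the 7 genes, all but Ptprc and Cd14, against 47.9% of all genes tested.

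**Figure D1:**
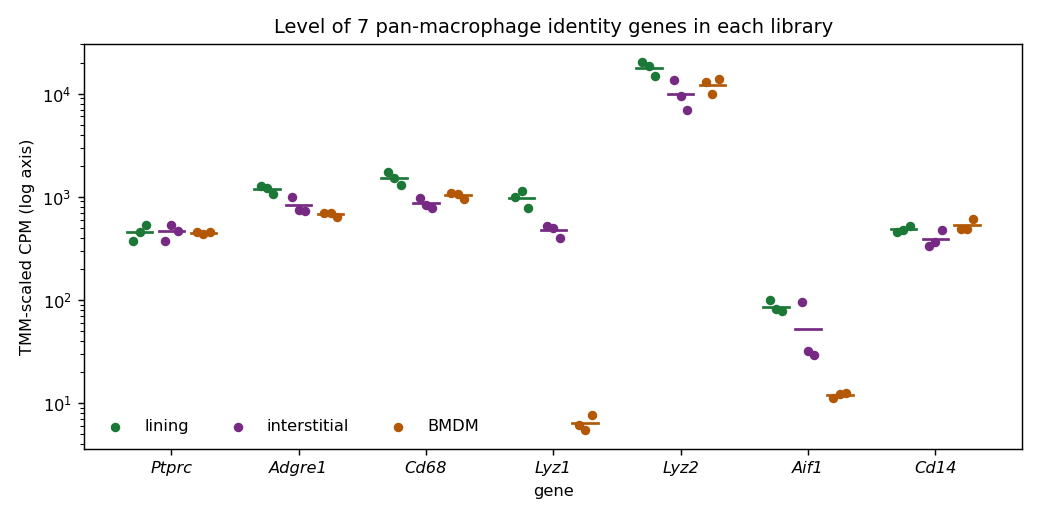
Each point is 1 library and each short bar a group mean, in TMM-scaled CPM on a log axis, for the 7 genes in lining, interstitial and BMDM libraries. The Ptprc points lie between 374 and 537 CPM in every group, while Lyz1 drops to between 5.41 and 7.65 CPM in BMDM.

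Ptprc (ENSMUSG00000026395, chr1:138062861-138175708, minus strand), which encodes CD45, was at 374, 451 and 527 CPM in the lining group, 375, 537 and 468 in interstitial and 459, 432 and 455 in BMDM. The 3 groups overlapped, and the BMDM values lay inside the range of both sorted groups. The means were 451 ± 76.2, 460 ± 81.0 and 449 ± 14.8 (SD, n = 3 each). The fitted difference in log2 fold change was −0.03 ± 0.16 (SE; 95% interval −0.38 to 0.32) for lining against interstitial, 0.01 ± 0.16 (−0.34 to 0.36) for lining against BMDM and 0.04 ± 0.16 (−0.31 to 0.39) for interstitial against BMDM. All 3 intervals lay within a 2-fold difference in either direction. The edgeR adjusted p for any group difference was 0.977. The log2 range of the Ptprc group means was smaller in 0.127% of the tested genes, which places this gene among the flattest in the table over these groups.

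This flatness holds relative to the bulk of genes. With libraries scaled instead to 16 commonly used reference genes, an alternative chosen after seeing the data, the median of all genes moved to 0.65 for lining and 0.73 for interstitial against BMDM on the log2 scale. Ptprc then stood at 0.66 (edgeR adjusted p = 0.0109) and 0.78 (adjusted p = 0.00366), which is 0 and 0.05 from those medians. Under TMM scaling 7 of the 16 reference genes were called lower in lining than in BMDM and none higher, and 9 were lower and 2 higher in interstitial than in BMDM. Of all genes, 20.5% were called lower and 23.1% higher in lining than in BMDM, and 21.3% lower and 23.4% higher in interstitial.

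The spread of each gene over the 9 libraries was set beside that of all tested genes, as a description. The SD of log2 CPM was 0.18 for Ptprc, 0.26 for Cd14, 0.39 for Adgre1 and for Cd68, 0.48 for Lyz2, 1.33 for Aif1 and 3.38 for Lyz1. The median over all tested genes was 0.62, with quartiles at 0.36 and 1.37. Thus 3.25% of tested genes had a smaller SD than Ptprc, 11.6% than Cd14, 28.2% than Cd68, 28.6% than Adgre1, 39.1% than Lyz2, 74% than Aif1 and 99.1% than Lyz1. The 16 reference genes had a median SD of 0.41, from 0.22 for Ywhaz, a 14-3-3 adaptor, to 1.35 for Pgk1, a glycolytic enzyme. In this SD over all 9 libraries, Ptprc lay below all 16 and Lyz1 above all 16. Within groups the SD of log2 CPM was 0.21 for Ptprc and 0.25 for Lyz1, inside the range of the 16. That range ran from 0.08 for Sdha to 0.99 for Pgk1, and 22.1% of tested genes had a smaller within-group SD than Ptprc.

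**Figure D2:**
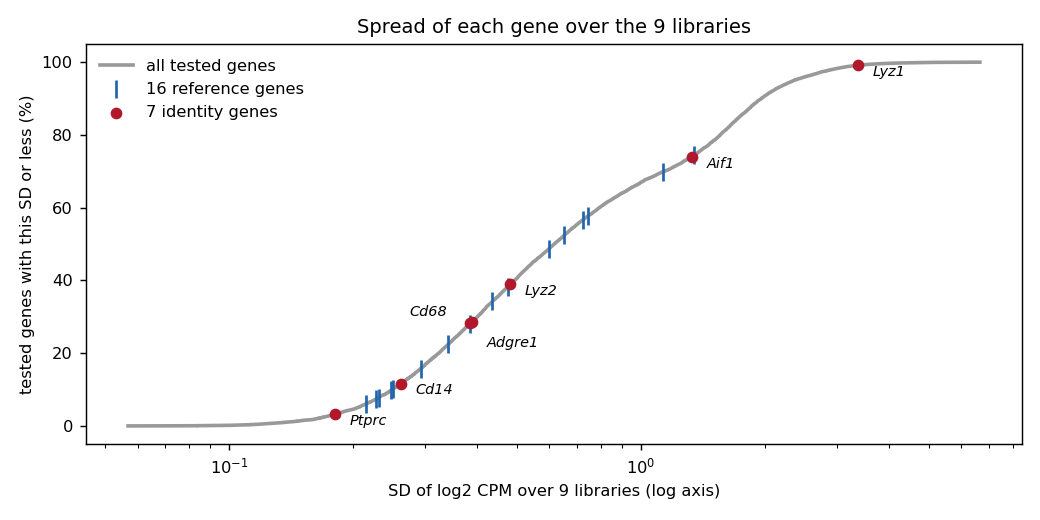
The grey line gives the percentage of the 12610 tested genes with an SD of log2 CPM over the 9 libraries at or below the value on the x axis (log axis); ticks are the 16 reference genes and points the 7 identity genes. Ptprc sits at an SD of 0.18, and Lyz1 at 3.38.

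Variation inside a group also differed by gene. The coefficient of variation within lining ran from 6.68% for Cd14 to 19.2% for Lyz1. Within BMDM it ran from 3.3% for Ptprc to 17.8% for Lyz1. Within interstitial it ran from 11.7% for Cd68 to 71.4% for Aif1, with Lyz2 at 32.5%. Library D had the fewest counts of the interstitial group (2238261). It had the highest level there of Aif1, Lyz2, Adgre1, Cd68 and Lyz1, and the lowest of Ptprc and Cd14. The pattern was not particular to D. In lining, library A had the fewest counts (2194920), the highest Aif1, Lyz2, Adgre1 and Cd68, and the lowest Ptprc and Cd14. Lyz1 was highest there in B. Whether these levels are linked to the library totals was not tested. Lyz2 also differed between E and F, at 9580 and 6971 CPM.

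Adgre1 (ENSMUSG00000004730, chr17:57358686-57483529, plus strand), which encodes F4/80, was at 1283, 1222 and 1067 CPM in the lining group, 1002, 738 and 735 in interstitial and 701, 692 and 632 in BMDM. The 3 groups did not overlap, and every lining library was above every other. The means were 1191 ± 111, 825 ± 153 and 675 ± 37.5 (SD, n = 3 each). Lining exceeded BMDM 1.76-fold, a log2 fold change of 0.82 ± 0.15 (SE; edgeR adjusted p = 0.000968). Against interstitial the difference of 0.53 ± 0.15 (95% interval 0.20 to 0.86) was not called, with an edgeR adjusted p of 0.0637. It was called without library D (0.67, adjusted p = 0.0116), by DESeq2 (adjusted p = 0.0155) and by limma-voom (adjusted p = 0.0168). Interstitial against BMDM gave 0.29 ± 0.15 (−0.04 to 0.62) and was not called, except with scaling to the reference genes (1.06, edgeR adjusted p = 0.00153).

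Cd14 (ENSMUSG00000051439, chr18:36725074-36726736, minus strand) was at 452, 475 and 515 CPM in the lining group, 331, 362 and 477 in interstitial and 488, 483 and 606 in BMDM. Lining overlapped both other groups, and the interstitial libraries all lay below the BMDM libraries. The means were 481 ± 32.1, 390 ± 76.9 and 526 ± 69.2 (SD, n = 3 each). Interstitial was called lower than BMDM, by a log2 fold change of −0.43 ± 0.16 (1.35-fold; edgeR adjusted p = 0.0435). Lining gave 0.30 ± 0.16 (95% interval −0.05 to 0.65) against interstitial and −0.13 ± 0.16 (−0.47 to 0.22) against BMDM, neither called. Scaling to the reference genes turned the latter to 0.52, which was called (edgeR adjusted p = 0.0175), and −0.13 relative to the median of all genes. The call against BMDM in interstitial was lost on leaving out D (adjusted p = 0.0852), E (0.11), G (0.0644), H (0.0598) or I (0.161), and lost with DESeq2's size factors in edgeR (0.0614) or a fit of those groups only (0.093). Scaled to the reference genes the difference was 0.28 (edgeR adjusted p = 0.164), and −0.45 relative to the median of all genes. The test over all 3 groups did not call Cd14 (adjusted p = 0.0944), but did so without F (0.01), by limma-voom (0.0482), with no filter on low counts (0.0246) and with scaling to the reference genes (0.0441).

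Cd68 (ENSMUSG00000018774, chr11:69664213-69666153, minus strand) was at 1721, 1516 and 1311 CPM in the lining group, 971, 839 and 772 in interstitial and 1096, 1064 and 946 in BMDM. Every lining library exceeded all 6 others, and interstitial and BMDM overlapped. The means were 1516 ± 205, 861 ± 101 and 1035 ± 79.0 (SD, n = 3 each). Lining was higher than interstitial by 1.76-fold, a log2 fold change of 0.82 ± 0.15 (edgeR adjusted p = 0.00614). This call held in 16 other settings, each library left out among them, and was lost with scaling to the reference genes (0.72, edgeR adjusted p = 0.101). Lining was also higher than BMDM, by 1.46-fold (0.55 ± 0.15, edgeR adjusted p = 0.00926), but not when library A (0.41, adjusted p = 0.0551) or I (0.44, adjusted p = 0.0833) was left out. Interstitial and BMDM differed by −0.27 ± 0.15 (95% interval −0.58 to 0.05), called without D (−0.40, edgeR adjusted p = 0.0426), and turned to 0.50 (0.0738, not called) with scaling to the reference genes.

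Lyz2, the myeloid lysozyme, was among the 4 most counted genes in every library and took its highest level in lining. It was at 20083, 18616 and 14963 CPM in the lining group, 13433, 9580 and 6971 in interstitial and 12938, 9891 and 13818 in BMDM. The lining libraries lay above all others, and the interstitial and BMDM ranges overlapped. The means were 17887 ± 2637, 9994 ± 3251 and 12216 ± 2061 (SD, n = 3 each). Lining against interstitial gave a log2 fold change of 0.84 ± 0.23 (95% interval 0.34 to 1.34; edgeR adjusted p = 0.0518), just short of the threshold. It was called without D (1.09, adjusted p = 0.011), by DESeq2 (0.00942) and by limma-voom (0.0326). Lining against BMDM gave 0.55 ± 0.23 (edgeR adjusted p = 0.068), called without D (0.0388), without F (0.0388), by DESeq2 (0.037) in a fit of those groups only (0.0195) and with scaling to the reference genes (1.21, 0.00563). Interstitial against BMDM gave −0.29 ± 0.23 (−0.78 to 0.20), called without D (−0.60, edgeR adjusted p = 0.0311), and turned to 0.51 (0.183, not called) with scaling to the reference genes. The test over the 3 groups called Lyz2 (edgeR adjusted p = 0.0215), but not without A (0.104), B (0.0975) or E (0.062), nor with no filter on low counts (0.0566).

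Lyz1 showed the widest separation of the 7 genes. It was at 995, 1144 and 774 CPM in the lining group, 520, 498 and 399 in interstitial and 6.14, 5.41 and 7.65 in BMDM. The groups did not overlap, and the lowest sorted library was far above the highest BMDM library. The means were 971 ± 186, 472 ± 64.2 and 6.40 ± 1.14 (SD, n = 3 each). Lining exceeded interstitial 2.06-fold, a log2 fold change of 1.04 ± 0.18 (edgeR adjusted p = 0.00472), a call kept in the same 16 settings and at an adjusted p of 0.05 (not called) with scaling to the reference genes. Against BMDM, lining was 151-fold higher (7.24 ± 0.23, edgeR adjusted p = 1.43e-09) and interstitial 73.6-fold higher (6.20 ± 0.22, edgeR adjusted p = 3.1e-09). By the F statistic of the test over the 3 groups, Lyz1 ranked 10 of the 12610 genes tested.

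The count behind the BMDM level was small but not at the floor, with 142, 109 and 166 Lyz1 counts in G, H and I, beside 299219, 199097 and 299671 Lyz2 counts. Of the counts of the pair, Lyz1 made 4.72%, 5.79% and 4.92% in lining and 3.73%, 4.94% and 5.42% in interstitial. In BMDM it made 0.0474% (exact Clopper-Pearson 95% interval 0.04 to 0.0559), 0.0547% (0.0449 to 0.066) and 0.0554% (0.0473 to 0.0645). The sorted groups overlapped in this share, at 5.14 ± 0.569% and 4.7 ± 0.871% (SD, n = 3 each), and both lay far above 0.0525 ± 0.00443% in BMDM. If Lyz2 reads reached Lyz1 at the highest BMDM ratio, they would supply 17 to 108 of the Lyz1 counts of a sorted library, which is 0.901% to 1.43% of them. Whether the BMDM counts are Lyz1 transcripts or misplaced Lyz2 reads was not tested.

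With the pair summed, lining exceeded interstitial by 0.85 ± 0.22 (edgeR adjusted p = 0.0471) and BMDM by 0.63 ± 0.22 (edgeR adjusted p = 0.0394) on the log2 scale. Interstitial against BMDM gave −0.22 ± 0.22 (95% interval −0.71 to 0.26; edgeR adjusted p = 0.443). Total lysozyme counts therefore followed Lyz2, since Lyz1 was a small share of the pair everywhere. The pair took 1.55% to 1.98% of library counts in lining, 0.739% to 1.41% in interstitial and 1.03% to 1.43% in BMDM.

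**Figure D3:**
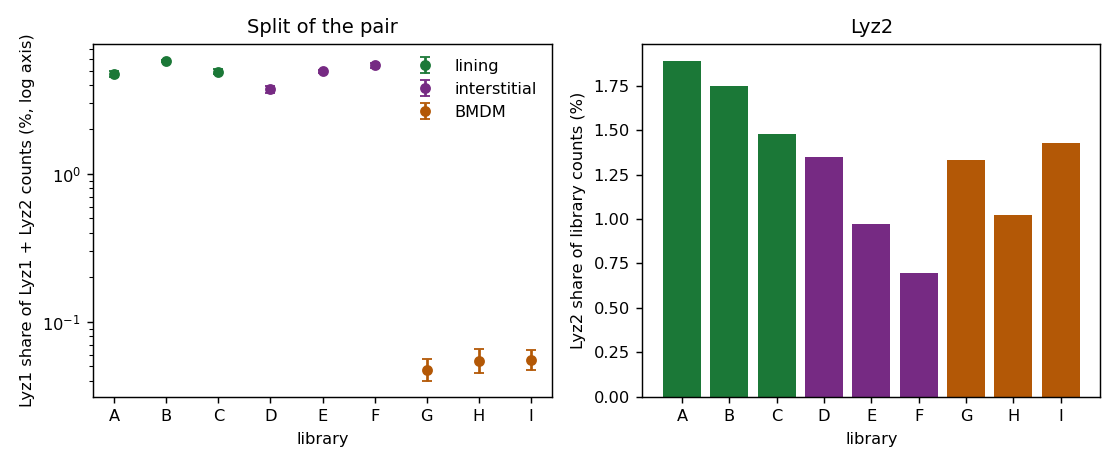
Left, the Lyz1 share of Lyz1 and Lyz2 counts in each library (percent, log axis) with exact 95% binomial intervals; right, the Lyz2 share of all counts in each library (percent). The Lyz1 share is between 3.73% and 5.79% in the 6 sorted libraries and between 0.0474% and 0.0554% in the 3 BMDM libraries, while Lyz2 shows no such gap.

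Aif1 (ENSMUSG00000024397, chr17:35170991-35176068, minus strand) was at 99.4, 80.6 and 77.3 CPM in the lining group, 95.3, 32.1 and 29.3 in interstitial and 11.2, 12.1 and 12.5 in BMDM. Library D lay within the lining range and apart from E and F, and all 6 sorted libraries were above BMDM. The means were 85.8 ± 11.9, 52.2 ± 37.3 and 12.0 ± 0.643 (SD, n = 3 each). Lining exceeded BMDM 7.15-fold, a log2 fold change of 2.84 ± 0.39 (edgeR adjusted p = 0.000139). Interstitial exceeded BMDM 4.24-fold (2.08 ± 0.38, edgeR adjusted p = 0.00107). Without D the latter was 1.33 (edgeR adjusted p = 0.000164), still called. Lining against interstitial gave 0.76 ± 0.37 (95% interval −0.07 to 1.58; edgeR adjusted p = 0.304), and was called without D (1.45, adjusted p = 0.00142) and by limma-voom (1.18, adjusted p = 0.0151).

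In counts, 2 of the 7 genes were called between lining and interstitial, Cd68 and Lyz1, both higher in lining, against 5.79% of all genes (3.74% higher and 2.05% lower). Leaving out D raised this to 5 of 7, DESeq2 gave 4 and limma-voom 5. The all-gene shares without D and by limma-voom are not given here, so these rises are not read as particular to the 7 genes. The 730 genes called between lining and interstitial fell to 396 without A, 462 without G, 469 without H and 461 without I. Scaled to the reference genes 0 of the 7 were called by edgeR, with 3 at an unadjusted p under 0.05. With plain library totals the 471 higher and 259 lower genes became 380 and 326. Between lining and BMDM, 4 of 7 were called, Adgre1, Cd68, Lyz1 and Aif1, all higher in lining, against 43.5% of all genes (23.1% higher and 20.5% lower). Between interstitial and BMDM, 3 of 7 were called, Lyz1 and Aif1 higher and Cd14 lower, against 44.8% (23.4% higher and 21.3% lower). With DESeq2's size factors this became 2 higher and 0 lower, and scaled to the reference genes 4 higher and 0 lower. Reference scaling made 5262 genes higher and 999 lower in lining than in BMDM, in place of 2911 and 2579, and 5749 higher and 988 lower in interstitial, in place of 2955 and 2688. The share of the 7 genes called in the comparisons with BMDM was thus near that of all genes.

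The median log2 fold change of the 7 genes was 0.76, 0.55 and 0.04 in lining against interstitial, lining against BMDM and interstitial against BMDM, where all tested genes had −0.01, 0 and −0.01. The 95% interval lay within a 2-fold difference in either direction for 3, 3 and 5 of the 7 genes, with Ptprc and Cd14 among them each time. The 3 comparisons share groups, so their values are not independent.

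**Figure D4:**
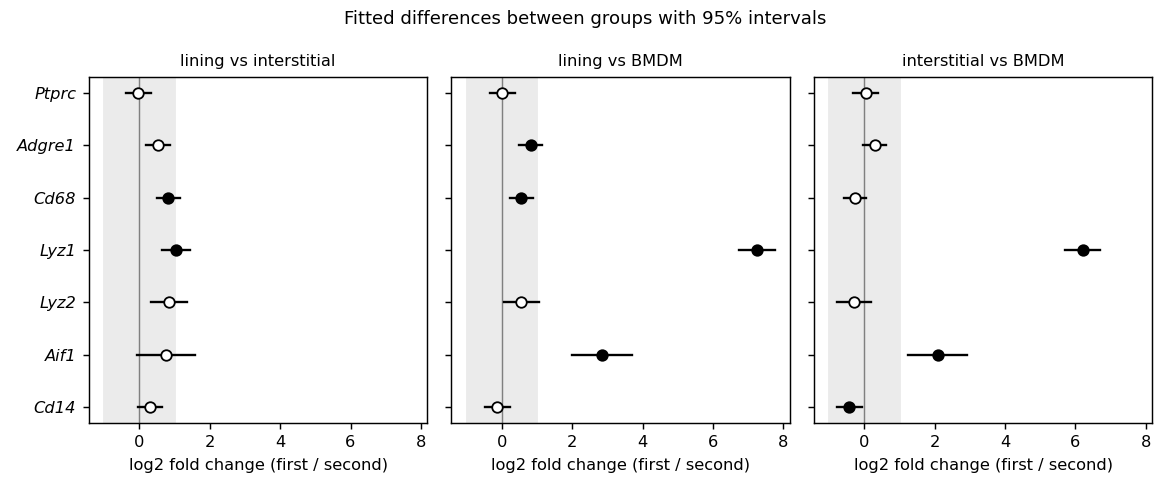
Each panel gives, for 1 comparison, the fitted log2 fold change of the 7 genes with its 95% interval. Ptprc is at −0.03, 0.01 and 0.04, and Lyz1 at 1.04, 7.24 and 6.20.

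Per length, in CPM per kilobase of exon, the order of levels was headed by Lyz2 and then Cd68 in all 9 libraries. The group means of Lyz2 were 13592, 7595 and 9282 in lining, interstitial and BMDM, and those of Cd68 were 1206, 685 and 824. Lyz1 came next in every sorted library, at 769 and 374, and was last in BMDM at 5.07. Adgre1 stood at 367, 254 and 208, Cd14 at 306, 248 and 335, and those neighbours exchanged places: Adgre1 was above Cd14 in A to D, and Cd14 above Adgre1 in E, F and the BMDM libraries. Aif1 (56.0, 34.1 and 7.80) and Ptprc (24.6, 25.1 and 24.5) had the lowest levels in the sorted groups, and Ptprc exons span the most bases, 18313 in all. That length pools the exons of all annotated transcripts (GENCODE M21 lists 13 for Ptprc), so the place of Ptprc in this order depends on the length used.

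Genes whose log2 CPM followed each identity gene over the 9 libraries most closely were taken from 5600 well-counted genes, as a description with no test. Adgre1 was followed by Abhd12, a lipid hydrolase (Pearson r = 0.988), and Lyn, a Src family kinase (0.976). Lyz1 was followed by Pltp, a phospholipid transfer protein, and Abca1, a cholesterol exporter (0.998 each); Pltp was at 2262 ± 384, 1634 ± 164 and 110 ± 10.5 CPM and Abca1 at 898 ± 99.97, 565 ± 153 and 19.1 ± 2.45 in lining, interstitial and BMDM (SD, n = 3 each). Aif1 was followed by Ino80c, of a chromatin remodelling complex (0.992), and C1qb, a chain of complement C1q (0.987). Lyz2 was followed by Lamp1, a lysosome membrane protein (0.94), and Trappc3 (0.929), Cd68 by Camk2d (0.982) and Gna12 (0.967), Ptprc by Nsd1 (0.955) and Supt20 (0.942), and Cd14 by Ccdc88b (0.923) and Fxyd5 (0.919). The 9 points share their groups, and libraries of a group share their source.

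Other genes used to identify macrophages, a list of 12, were not level across the groups either. Between lining and interstitial 3 were called higher and none lower, against 5.79% of all genes, with a median log2 fold change of 0.32. These were Cx3cr1, the reporter gene of the sort (7.11 ± 0.29), Fcgr1, the high-affinity IgG receptor (1.04 ± 0.24), and Sirpa, the receptor for CD47 (0.68 ± 0.13). The sort selected for the Cx3cr1 reporter in lining and against it in interstitial. That call was therefore fixed by the design and is not a finding. Scaled to the reference genes, or in a fit of lining and interstitial only, 1 of the list was called higher. The Fcgr1 call was lost without A, B, C or I (highest edgeR adjusted p = 0.108). Of all genes, 43.5% were called between lining and BMDM and 44.8% between interstitial and BMDM. In this list lining had 6 higher and 2 lower than BMDM (median 0.53), and interstitial 5 higher and 6 lower (median −0.16). Scaled to the reference genes these became 9 higher and 1 lower, and 6 higher and 2 lower. Under TMM scaling the calls against BMDM include Cx3cr1, higher in lining and lower in interstitial, and Itgam, higher in both. Itgam encodes CD11b, which was also a marker of the sort.

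Mertk, a receptor for the uptake of dying cells, was at 178 ± 17.9, 130 ± 21.6 and 17.9 ± 2.42 CPM in the lining group, interstitial and BMDM, and was higher in both sorted groups (3.31 ± 0.18 and 2.87 ± 0.17 in log2). Cd33, a sialic acid-binding receptor, was likewise higher in both (3.05 ± 0.19 and 2.55 ± 0.19). Lgals3, which encodes galectin-3, was lower in both (−2.64 ± 0.47 and −1.91 ± 0.46), at 644 ± 186, 1067 ± 773 and 4008 ± 113 CPM. Cx3cr1 was higher in lining than in BMDM (1.35 ± 0.21) and lower in interstitial than in BMDM (−5.76 ± 0.28). The sort for and against its reporter bears on both differences, so they are not read as findings. Named after their values were seen, Csf1r, the receptor for the colony-stimulating factor in the culture medium, was higher in both sorted groups (1.21 ± 0.18 and 1.06 ± 0.18). The macrophage transcription factor gene Spi1, which encodes PU.1 and was also named after its values were seen, was called in none of the 3 comparisons, at 373 ± 62.1, 347 ± 12.4 and 312 ± 6.36 CPM (SD, n = 3 each).

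**Figure D5:**
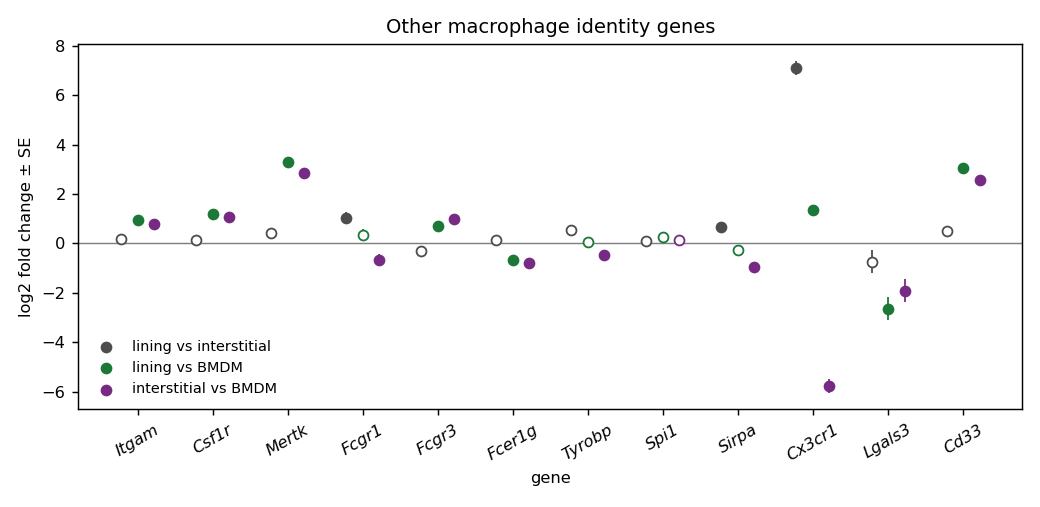
Fitted log2 fold changes with their SE for 12 other macrophage identity genes in the 3 comparisons; filled points were called and open points were not. Mertk and Cd33 lie near 3 above BMDM, Lgals3 lies below 0, and Spi1 lies between 0.11 and 0.26.

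Genes of the pathway that CD14 serves, the receptor TLR4 with its partners and adaptors (13 genes), moved in both directions. Between lining and interstitial 1 was called higher and none lower (median −0.16), against 5.79% of all genes. This was Irak2, a kinase of the pathway, at 1.08 ± 0.23, a call lost without B, C or E (highest edgeR adjusted p = 0.0671). Lining had 6 higher and 3 lower than BMDM (median 0.25), where 43.5% of all genes were called. Interstitial had 5 higher and 2 lower than BMDM (median 0.28), where 44.8% of all genes were called. Scaled to the reference genes the splits were 7 to 0 and 10 to 0. Ly86, which encodes MD-1, the partner of the TLR4-like receptor CD180, was higher by 2.73 ± 0.24 and 1.93 ± 0.24. The adaptor Ticam2 was higher by 2.06 ± 0.19 and 2.08 ± 0.19. Lbp, which hands lipopolysaccharide to CD14, was higher by 4.31 ± 0.84 and 5.92 ± 0.86 at low levels of 4.53 ± 3.95, 13.8 ± 3.77 and 0.213 ± 0.0573 CPM. Ly96, which encodes the TLR4 partner MD-2, was higher by 1.62 ± 0.50 and 1.91 ± 0.50, the first lost without C, G, H or I (highest edgeR adjusted p = 0.135).

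Of kinases and phosphatases around CD45, 9 of 10 were tested. Between lining and interstitial 2 were called higher and none lower (median 0.49), against 5.79% of all genes. They were Lyn and the phosphatase gene Ptpn6 (SHP-1), at 0.53 ± 0.14 and 0.55 ± 0.14. These calls were unsteady: Lyn was lost without A, B, E, F, G, H or I (highest edgeR adjusted p = 0.153), and Ptpn6 without A, B, D, F, G, H or I (highest 0.136). Between the sorted groups edgeR called 0 of this list with plain library totals, with scaling to the reference genes or in a fit of those groups only, and 1 with DESeq2's size factors, with no filter on low counts or with a minimum mean CPM of 1. Lining had 4 higher and 1 lower than BMDM (median 0.88), where 43.5% of all genes were called. Interstitial had 4 higher and 2 lower than BMDM (median 0.36), where 44.8% of all genes were called. Scaled to the reference genes the splits were 6 to 0 in each, and in lining the split was 4 to 0 with DESeq2's size factors and 4 to 2 with plain library totals. Yes1, a widely expressed Src family kinase, had 16 counts in each sorted group and 2 in BMDM, ratios of 34.2 (exact 95% counting interval 8.03 to 306) for lining and 28.9 (6.8 to 259) for interstitial. The first was lost without G or H and the second without E, G or H. Fgr, a Src family kinase of myeloid cells, was higher in both, by 4.20 ± 0.56 and 2.77 ± 0.54, and Ptprj, a receptor phosphatase, by 1.03 ± 0.15 and 0.96 ± 0.15. Lyn was higher in lining than in BMDM (0.88 ± 0.14), and Src was higher in interstitial than in BMDM (2.20 ± 0.60), lost without H or I.

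Lysosome membrane relatives of CD68 did not pass the test between the sorted groups, where 5.79% of all genes were called. Of 5 tested, 0 were called by edgeR, DESeq2 or limma-voom between lining and interstitial, with 2 at an unadjusted p under 0.05 by edgeR and a median of 0.25. Against BMDM, 3 were higher in lining (median 0.60), where 43.5% of all genes were called. In interstitial 3 were higher (median 0.34), where 44.8% of all genes were called, and none was lower in either group. All 5 were higher in both with scaling to the reference genes. Lamp2, which encodes a protein of the lysosome membrane, was higher by 0.60 ± 0.16 and 0.61 ± 0.16, the first lost without I (edgeR adjusted p = 0.0545). Scarb2, the sorting receptor of glucocerebrosidase, was higher by 0.63 ± 0.19 and 0.67 ± 0.18, the first lost without A, B, G or I. Laptm5 was higher by 0.65 ± 0.13 and 0.34 ± 0.13, the second lost without A, B, E, F, G, H or I.

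The other adhesion G protein-coupled receptors were spread widely between the groups, several of them at low counts. Of 9 tested, 0 were higher and 3 lower in lining than in interstitial (median −1.69), against 5.79% of all genes called. In lining 5 were higher and 2 lower than in BMDM (median 2.41), against 43.5% of all genes. In interstitial 7 were higher and none lower than in BMDM (median 4.21), against 44.8% of all genes. With 2 receptors that had 0 counts in lining set to their bounds, the first median was −0.89, and the second stayed at 2.41. Adgre5, which encodes CD97, was at 1509 ± 169 CPM in the lining group, 1014 ± 339 in interstitial and 47.2 ± 6.20 in BMDM, higher by 5.00 ± 0.26 and 4.43 ± 0.25 than BMDM. Adgrl2, a latrophilin, was lower in lining than in both other groups (−1.85 ± 0.25 and −2.21 ± 0.25). Adgrg1 was lower in lining than in interstitial (−1.69 ± 0.35), lost without A or B, and higher than in BMDM in both sorted groups (2.51 ± 0.37 and 4.21 ± 0.38). Adgrd1 had 0 counts in lining and 52 in interstitial, at least 14.7-fold lower in lining against a floor of 3 counts over the group, a call lost without A, B, C, E, F, G, H or I. Adgrg3 had 0 counts in lining and 133 in BMDM, at least 10.4-fold lower, lost without B, G, H or I. Adgre4 had 87 counts in lining and 149 in interstitial against 1 in BMDM, ratios of 372 (exact 95% counting interval 65 to 14800) and 539 (95.3 to 21400), the first lost without B. Adgrd1 had 3 counts in BMDM, a ratio of 62.7 (20.3 to 314) for interstitial, and Adgrl4 was higher in interstitial by 4.23 ± 1.26, lost without D, G, H or I.

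Actin-remodelling genes linked to AIF1 moved in both directions against BMDM, where 43.5% of all genes were called for lining and 44.8% for interstitial. Of 12 listed genes tested, 0 were called between lining and interstitial by edgeR, against 5.79% of all genes. By edgeR 5 had an unadjusted p under 0.05 (median 0.33), and 2 were called higher by DESeq2 and by limma-voom. Lining had 2 higher and 4 lower than BMDM (median −0.25), where leaving out G or H left 2 lower and leaving out A, B, G, H or I left 0 higher. Interstitial had 1 higher and 8 lower (median −0.59), and 0 higher with no filter on low counts, with a minimum mean CPM of 1, in a fit of those groups only, or without B, D, F, G, H or I. Aif1l, a close relative of Aif1, had 14 counts in lining, 10 in interstitial and 2 in BMDM, ratios of 29.9 (exact 95% counting interval 6.87 to 271) and 18.1 (3.85 to 170) to BMDM. Its call in lining was lost without A, B, G, H or I, and that in interstitial without B, D, F, G, H or I. Tmsb4x, which encodes the actin-binding thymosin beta, was higher in lining than in BMDM (0.53 ± 0.16), lost without A, B, G, H or I. Lcp1, which encodes the actin bundler L-plastin, was lower by −0.98 ± 0.14 and −0.99 ± 0.14, at 1250 ± 77.6, 1241 ± 206 and 2459 ± 47.0 CPM. Rac2, a GTPase of blood cells that drives actin assembly, was lower by −1.40 ± 0.16 and −1.14 ± 0.16. Cfl1, which encodes the actin-severing cofilin, was lower in interstitial than in BMDM (−0.81 ± 0.14). Scaled to the reference genes the split changed to 5 higher and 1 lower in lining, and 4 higher and 0 lower in interstitial, so the direction of this list against BMDM depends on the scaling.

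Markers of other cell types were present at levels that differed between the groups, and their part in the results was not tested. Summed levels of 11 neutrophil markers, cells that also make lysozyme, were 0 to 6.87 CPM in the lining group, 0 to 84.3 in interstitial and 53.1 to 68.4 in BMDM, with 4 of them at 0 in lining. The lowest of these sums in interstitial, 0, was in library D, which had the highest Lyz2 level of its group. Library D also had the fewest counts of its group, with 3 counts equal to 1.33 CPM. Whether the marker and Lyz2 levels are linked was not tested. The 5 monocyte markers summed to 1340 to 1630 CPM in the lining group, 3160 to 9120 in interstitial and 46.7 to 67.1 in BMDM. Most of the sum was F13a1 in the sorted libraries and Ccr2 in BMDM. Ccr2 was at 46.1 to 165 CPM in lining and 52.8 to 158 in interstitial, so the difference between the sorted groups rests on F13a1. The 6 fibroblast markers summed to 144 to 232, 144 to 613 and 1.6 to 2.48 CPM, and 6 dendritic cell markers to 3.39 to 40.9, 68.8 to 144 and 3.42 to 4.27. The highest sum in any library was 1.45 CPM for T cells, 14.4 for B cells, 23.4 for mast cells, 17.6 for muscle, 2.34 for keratinocytes and 50.6 for endothelial cells. The endothelial sum of 50.6 was in BMDM library H and was nearly all Kdr (49.0 CPM). In interstitial the endothelial sums reached 41.4 CPM.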

How the data were processed

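RNA from 9 samples (3 sorted lining, 3 sorted interstitial, 3 BMDM) was sequenced as poly(A)-selected, stranded TruSeq libraries from 500 ng of RNA, in single reads of 101 bases, per the labels' protocols. The authors deposited 1 table of raw read counts per gene. Per the file headers, featureCounts 1.6.1 counted exon reads on the reverse strand over Ensembl release 91 (GRCm38), with no option for multi-mapping reads, so reads that fit Lyz1 and Lyz2 equally would be left out. Further tools named, without settings, are STAR 2.5.4a, DESeq2 1.20.0 under R 3.5.0, and cutadapt 1.15, per the submitters' processing notes. Of the identifiers, 53274 matched a symbol and 191 did not.

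Genes were kept by edgeR's filterByExpr (minimum count 10, minimum total 15). Counts were scaled by TMM and fitted with 1 mean per group over all 9 samples (6 residual degrees of freedom) by edgeR 4.0.16's robust quasi-likelihood F test in R 4.3.3, two-sided, with Benjamini-Hochberg adjustment over 12610 genes and a threshold of 0.05. Log2 CPM used a prior count of 2. The standard error is the log2 fold change divided by the root of F. Genes were named by rule: the 7 genes, up to 4 called genes per list and comparison by size of change, the 2 genes most correlated with each (mean log2 CPM of at least 5), and the reference genes of lowest and highest SD. The 7 genes and all lists were chosen with earlier results of these data known, and lists are described by counts and medians. Alternatives were DESeq2 1.42.0, limma 3.58.1 (voom), other scalings and filters, fits of the compared groups only, each library left out, and the lysozymes summed. The code was tested on simulated counts. Sample letters are not shared between groups, so nothing in the labels pairs the samples, and the labels name no batch. Whether lining and interstitial samples came from the same mice is not stated, so a pairing may exist unlabelled. Promoter sequences came from RefSeq windows, which list 5 of the 7 genes. Total counts ran from 2194920 to 22499823 per library.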

Additional observations from a re-analysis of the deposited data

How the results depend on the processing

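No paired analysis was run, because the labels do not say which lining and interstitial samples, if any, came from the same mice. Between lining and interstitial, 2 of the 7 genes were called, and DESeq2 called 4, limma-voom 5, the fits leaving out one library 2 to 5 (5 without interstitial library D) and scaling to the reference genes 0. The cause was not tested, and the all-gene counts without D and by limma-voom are not given here. Between lining and BMDM 4 were called, and 7 after scaling to the reference genes, a scaling that by construction moves every gene against BMDM in the same direction. All genes called between lining and interstitial numbered 730, against 1298 by DESeq2, 366 in a fit of those groups only, 477 after reference scaling and as few as 396 with one library left out. After reference scaling Cd14 changed sign against BMDM, to 0.52 for lining (called) and 0.28 for interstitial (not called). So did Cd68 (0.50) and Lyz2 (0.51) in interstitial against BMDM, both without a call. The summed lysozyme pair, which is mostly Lyz2, gave −0.22 in interstitial against BMDM, where Lyz1 alone gave 6.20 and Lyz2 alone −0.29. The calls of Lyz1 and Aif1 against BMDM, and of Cd68 and Lyz1 between lining and interstitial, held under DESeq2, limma-voom, other filters, the other edgeR scalings apart from the reference genes, fits of the compared groups only and each library left out. With scaling to the reference genes the calls of Lyz1 and Aif1 against BMDM also held, and those between lining and interstitial were lost. With 3 libraries a group, a missed call does not show equal levels, and the sorted libraries had fewer counts than the BMDM libraries.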
